A study of Mus musculus with 8 samples.

Results

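Desmosomes are described here through 10 genes that encode their core parts: the desmogleins Dsg1a, Dsg2, Dsg3 and Dsg4, the desmocollins Dsc1, Dsc2 and Dsc3, and the plaque proteins Pkp1, Jup and Dsp. The rule for membership is the identity of the gene, a desmosomal cadherin or plaque protein of hair and epidermis, and members were found on the array through the RefSeq accession of each probe. They had 14 probes of the 55603 probes measured, and 10 genes of the 20128 with a symbol. Total RNA from skin of C57BL/6N mice was hybridised to Agilent single-colour mouse arrays, 1 array per sample. Hair loss skin of Cchcr1 mutant mice gave 2 samples (1 each from titles Mutant097 and Mutant113), normal skin of Cchcr1 mutant mice gave 4 (replicates 1 and 2 from Mutant097, 3 and 4 from Mutant113), and normal skin of wild type mice gave 2 (both Wild001). The labels do not give the kind of Cchcr1 mutation, the age or sex of the mice, or what the title number and the letter in the titles (A or B on normal samples) stand for. Replicates 1 and 3 of mutant normal skin and replicate 1 of the wild type carry B, the others A. If a number is 1 animal, the samples of a group come from 1 or 2 animals, and the p-values measure only the spread between these samples, which may be partly technical.

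A desmosome joins neighbouring cells by the outer domains of desmogleins and desmocollins, which are calcium-dependent cadherins. Inside the cell, plakoglobin (the product of Jup) and plakophilins bind the cadherin tails, and desmoplakin (Dsp) ties the plaque to keratin filaments. In skin the cadherins are layered: Dsg3 and Dsc3 are strongest in the deeper epidermis and the outer root sheath, Dsg1 and Dsc1 in the upper epidermis, and Dsg4 in the forming hair shaft, where its loss causes the brittle hair of lanceolate mice.

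A level is the log2 of the probe's processed intensity minus the 75th percentile of its array, so that 0 is that percentile and a difference of 1 is a doubling of signal. Levels of different probes cannot be set against each other, because probes differ in how well they bind. That percentile was an intensity of 83.1 to 211.2 over the 8 arrays, and 25424 to 30205 probes per array were well above background by the scanner software's mark. Basal and suprabasal epidermal markers (5 and 5 genes measured) were well above background on all 8 arrays. Xist was well above background in the 3 Mutant113 samples and in none of the other 5, and Ddx3y, which lies on the Y chromosome, in those 5 and in none of the 3, so sex and title number cannot be told apart among the mutants. The Cchcr1 probe was well above background in all 8 samples, at -0.07 to -0.03 in the wild type and -0.04 to 0.49 in the mutants. Whether that probe lies in the mutated stretch is not given, so it checks no label. In whole skin, fewer cells of a type and less RNA per cell cannot be told apart.

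By each gene's probe of highest mean, 9 of the 10 desmosome genes had a higher mean in mutant normal skin than in wild type skin. In hair loss skin 10 of 10 did, but 0 passed an adjusted p of 0.05 in either comparison. With normexp background correction Dsg2 turned to -0.03 and -0.06. A second Dsc3 probe was lower than wild type in both comparisons, at -0.35 and -0.295. The largest differences were those of the hair shaft cadherin Dsg4, which was not well above background in either wild type sample, and of Dsc2. The median over the 10 genes was 0.35 for mutant normal skin against wild type and 0.58 for hair loss against wild type, beside -0.04 and -0.06 over all 30417 probes tested. Both comparisons use the same 2 wild type samples. The tests come from 1 limma model of all 8 arrays, with Benjamini-Hochberg adjustment over all probes tested.

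For mutant normal skin against wild type, 0 of 10 genes were called at an adjusted p under 0.05, where 0.694% of all probes were called. At an unadjusted p under 0.05 there were 2 of 10 (Dsg4 and Pkp1), against 17.2% of all probes. In 3 of 10 genes (Pkp1, Dsp and, by values partly at background, Dsg4) every mutant normal sample lay above both wild type samples, against 13.6% of all probes. For hair loss against wild type, 0 of 10 were called beside 1.42% of all probes, and 4 of 10 (Dsg4, Dsc1, Dsc2 and Pkp1) had an unadjusted p under 0.05 beside 24.8%. Both hair loss samples lay above both wild type samples in 7 of 10 genes, all but Dsg1a, Dsg3 and Jup, where 24.8% of all probes did so. By second probes this did not hold for Dsg2 and Dsc3, and it did for Dsg3 and Dsp. For hair loss against mutant normal skin, 0 of 10 were called and 0 of 10 had an unadjusted p under 0.05, beside 0.00% and 5.20% of all probes. No gene of the 10 had both hair loss samples above all 4 mutant normal samples, which held for 5.73% of all probes.

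**Figure D1:**
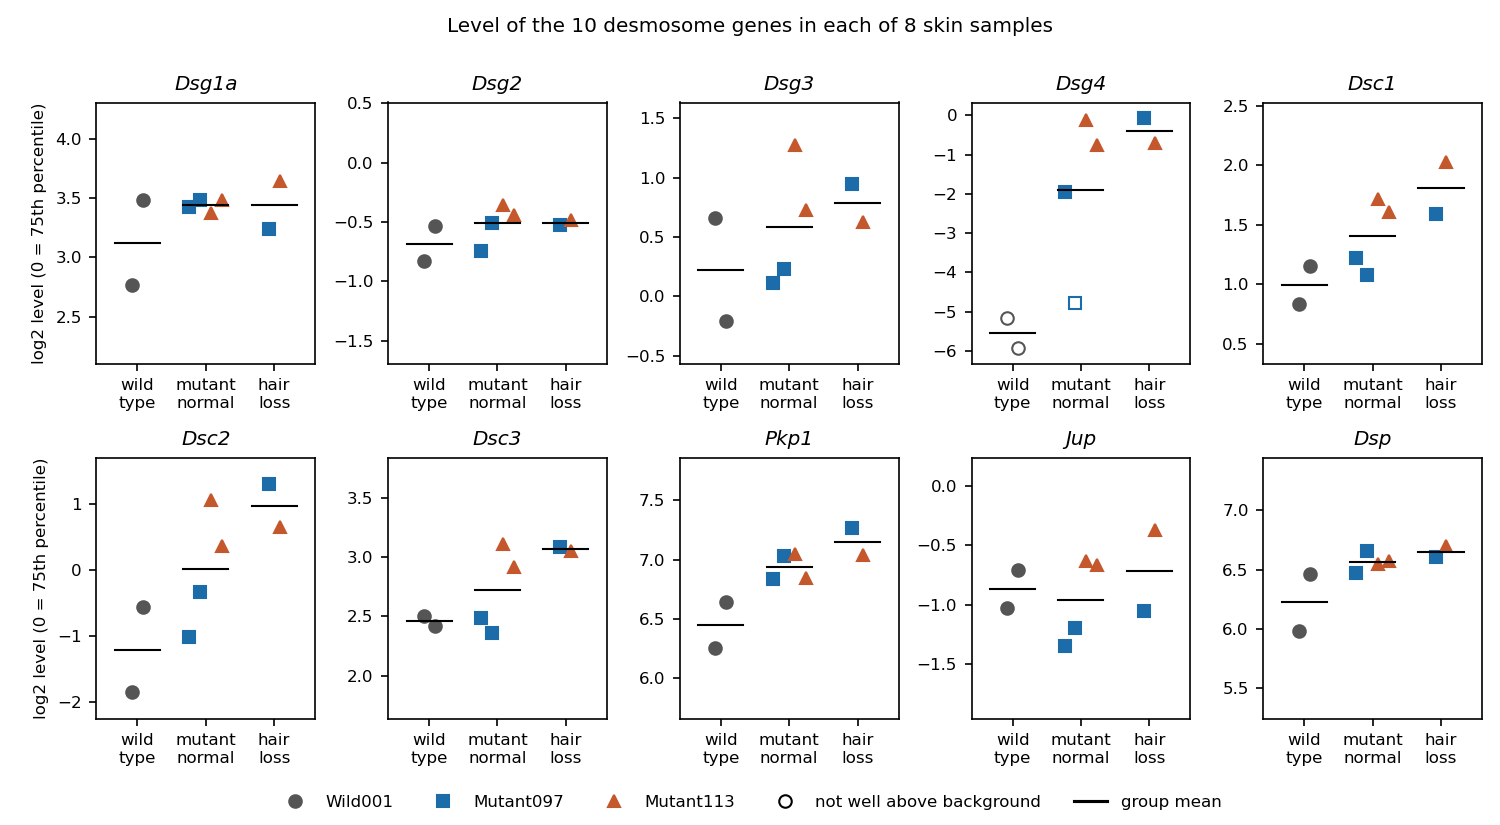
Log2 level of each of the 10 genes (each gene's probe of highest mean) in the 8 samples, by group; circles are Wild001, squares Mutant097 and triangles Mutant113, white symbols are not well above background and bars are group means. All panels span at least about 2 log2 units but each has its own range. Dsg4 runs from -5.92 in the wild type to -0.08 in hair loss skin, while Dsg2 stays between -0.83 and -0.36.

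Dsg4 had a level of -5.16 and -5.92 in the 2 wild type samples, neither well above background. In mutant normal skin it was -1.94 and -4.78 in replicates 1 and 2, from Mutant097, and -0.11 and -0.75 in replicates 3 and 4, from Mutant113. In hair loss skin it was -0.08 in Mutant097 and -0.71 in Mutant113. The 5 mutant samples that measured Dsg4 lay above both wild type samples. Mutant normal replicate 2 was, like the wild type, not well above background, and signals at background have no order among themselves. Dsg4 passed the filter on dim probes through the mutant arrays, and the fitted differences from the wild type below are no measured sizes. The fitted difference between mutant normal skin and wild type was 3.64 (SE 1.15, limma adjusted p = 0.189). For hair loss skin it was 5.15 (SE 1.33, limma adjusted p = 0.0856). Between lesion and mutant normal skin it was 1.51, with a 95% interval of -1.16 to 4.17 and an adjusted p of 0.999.

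Because the wild type Dsg4 signal is only a bound, the fold was also taken against a floor, the lowest signal of any probe well above background on each wild type array. By that measure the Dsg4 signal of hair loss skin was at least 7.91-fold that of the wild type, and the signal of the 2 normal samples of Mutant113 at least 7.69-fold. No bound is given for Mutant097 normal skin or for all mutant normal skin, whose means include replicate 2. Within Mutant097 the floor was taken from the array of replicate 2 instead. Against that floor, replicate 1 was at least 2.91-fold above replicate 2, and the hair loss sample at least 10.63-fold above replicate 2.

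The call on Dsg4 turned on mutant normal replicate 2. Without that array the difference from wild type was 4.60 for mutant normal skin (limma adjusted p = 0.0237) and 5.15 for hair loss skin (limma adjusted p = 0.0175). It was the only mutant array with Dsg4 at background, like the wild type, so calls gained by leaving it out are no added support. All calls on Dsg4 against wild type, here and below, set mutant signal against signal at background. With the slide row as a block the differences were 5.11 (limma adjusted p = 0.035) and 8.08 (limma adjusted p = 0.0195). On the slide, row 1 carried the 3 Mutant097 arrays and the Mutant113 hair loss array, and row 2 the remaining 4, so among mutant normal samples the row is also the title number. The block adds the difference between Mutant113 and Mutant097 normal skin to the hair loss difference, and row, title number and sex cannot be told apart in the calls it gains. With a model-based background correction (normexp), which here also added an offset of 50 to every intensity, the differences shrank to 0.90 and 1.41. The offset by itself pulls dim signals together, and its part in the shrinkage was not separated. The second difference lay below the hair loss bound given above (2.98 in log2), so the bound holds for the processed signal only.

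The other desmogleins varied little or overlapped. Dsg1a, a target of the bacterial toxins that split the upper epidermis, was 3.24 and 3.64 in hair loss skin, 3.37 to 3.48 in mutant normal skin, and 2.77 and 3.48 in the wild type. Wild type replicate 1 was the lowest array and replicate 2 lay among the mutants. Its hair loss to mutant normal difference was 0.00, with an interval of -0.54 to 0.54. Dsg2, the desmoglein of simple epithelia and heart, stayed between -0.74 and -0.36 in the 6 mutant samples and was -0.83 and -0.54 in the wild type. The interval of its difference between hair loss and mutant normal skin was -0.41 to 0.42.

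Dsg3, the adhesion protein that autoantibodies bind in pemphigus vulgaris, was 0.94 and 0.62 in hair loss skin. It was 0.11, 0.23, 1.28 and 0.73 in mutant normal replicates 1 to 4, and 0.66 and -0.21 in the wild type. The lower mutant values were both from Mutant097 normal skin, and the wild type spanned them. The difference of 0.36 between mutant normal skin and wild type (SE 0.38) became -0.08 without wild type replicate 2. A second Dsg2 probe gave 0.37 in the same comparison, and a second Dsg3 probe 0.25, which pools unlike title numbers. By that Dsg3 probe, Mutant097 normal skin (-0.79 and -1.01) lay below both wild type samples (-0.26 and -0.67). Mutant113 normal skin (0.79 and 0.14) lay above them.

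**Figure D2:**
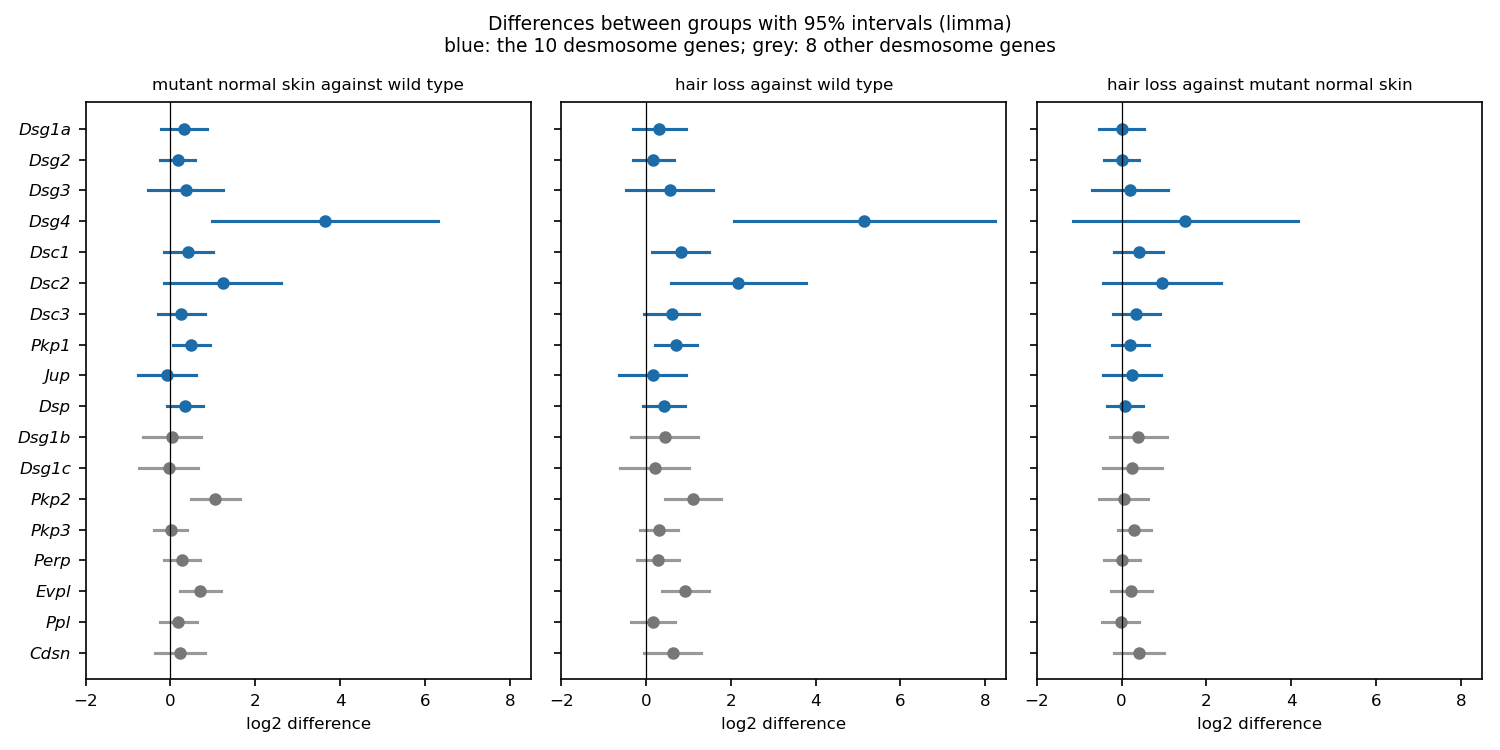
Log2 differences between groups with 95% intervals from the limma model, for the 10 genes (blue) and 8 further desmosome genes (grey). The intervals of Dsg4 are the widest, from 2.07 to 8.22 for hair loss against wild type, and every interval for hair loss against mutant normal skin spans 0.

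Among the desmocollins, Dsc2 had the widest range. Dsc2, found in most tissues that make desmosomes, was -1.86 and -0.56 in the wild type. It was -1.02 and -0.33 in normal skin of Mutant097, 1.06 and 0.37 in normal skin of Mutant113, and 1.30 and 0.64 in hair loss skin. Hair loss and wild type did not overlap, whereas Mutant097 normal skin lay within the span of the wild type or just above it. The difference from the wild type was 2.18 in hair loss skin (SE 0.69, limma adjusted p = 0.119) and 1.23 in mutant normal skin (SE 0.60, limma adjusted p = 0.339). With the slide row as a block the hair loss difference was 3.57 (limma adjusted p = 0.0455), a value that includes the 1.39 by which Mutant113 exceeded Mutant097 in normal skin.

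Dsc1, the desmocollin of the upper epidermis and the inner layers of the hair follicle, was 0.83 and 1.15 in the wild type. It was 1.22 and 1.08 in Mutant097 normal skin, 1.72 and 1.61 in Mutant113 normal skin, and 1.59 and 2.03 in hair loss skin. The order was the same as for Dsc2: Mutant097 normal skin beside the wild type, and Mutant113 normal skin beside hair loss skin. Dsc1 in hair loss skin was 0.82 above its wild type level (SE 0.29, limma adjusted p = 0.140).

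Dsc3, the desmocollin of the deeper epidermis, was within 2.36 to 2.50 in the 2 wild type and the 2 Mutant097 normal samples. It was within 2.92 to 3.11 in the other 4 samples, both of hair loss and both of Mutant113 normal skin. The hair loss to wild type difference was 0.61 (SE 0.28, limma adjusted p = 0.223), and 1.20 with the slide row as a block (limma adjusted p = 0.0491), which includes the 0.59 between Mutant113 and Mutant097 normal skin. A second Dsc3 probe disagreed. Its wild type levels of 0.45 and 0.33 lay above all 3 Mutant097 samples (-0.26, -0.74 and -0.36) and below the 3 Mutant113 samples (0.55 to 0.60). By that probe mutant normal skin was lower than wild type, at -0.35 (SE 0.43), and so was hair loss skin, at -0.295 (SE 0.50). With the mean of both probes the hair loss difference was 0.155.

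The plaque genes differed less than Dsg4 and Dsc2. Pkp1, the plakophilin of stratified epithelia whose loss causes fragile skin, was 6.25 and 6.64 in the wild type, 6.84 to 7.04 in mutant normal skin, and 7.26 and 7.04 in hair loss skin. Every mutant sample lay above both wild type samples. Mutant normal skin differed by 0.49 (SE 0.18, limma adjusted p = 0.241) and hair loss skin by 0.70 (SE 0.21, limma adjusted p = 0.109).

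Dsp, which anchors keratin filaments, was 5.99 and 6.46 in the wild type, 6.47 to 6.65 in mutant normal skin, and 6.60 and 6.70 in hair loss skin. The mutants again lay above the wild type, mutant normal replicate 1 barely so, and the differences of 0.34 and 0.43 had adjusted p-values of 0.388 and 0.255. A second Dsp probe gave 0.41 and 0.62. Jup, shared by desmosomes and adherens junctions, was the only one of the 10 with a lower mean in mutant normal skin than in the wild type, at -0.09 (SE 0.30). Its levels were -1.03 and -0.71 in the wild type, -1.35 and -1.20 in Mutant097 normal skin, and -0.63 and -0.66 in Mutant113 normal skin. In hair loss skin Jup was -1.06 in Mutant097 and -0.37 in Mutant113, so its samples sorted by title number rather than by lesion.

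The title numbers differed within the mutant normal group. Normal skin of Mutant113 exceeded that of Mutant097 by 2.93 for Dsg4 (with replicate 2 at background), 1.39 for Dsc2, 0.83 for Dsg3, 0.63 for Jup, 0.59 for Dsc3 and 0.52 for Dsc1. By each gene's probe of highest mean, none of the 10 was called (smallest limma adjusted p = 0.226), where 0.266% of all probes were called. By the same probes, 5 of 10 (these genes without Dsg3) had an unadjusted p under 0.05, beside 15.8% of all probes. Second probes gave 1.36 for Dsg3 (limma adjusted p = 0.144) and 1.075 for Dsc3 (limma adjusted p = 0.132). Dsp, Pkp1 and Dsg1a differed by 0.00, 0.01 and -0.02 between the numbers, but a second Dsp probe differed by 0.37.

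The difference between hair loss and normal skin was also taken within each number, with 1 hair loss sample in each, which is assumed to vary like the other samples. In Mutant097 it was 3.29 for Dsg4 (again with replicate 2 at background), 1.98 for Dsc2, 0.77 for Dsg3 and 0.66 for Dsc3. In Mutant113 it was -0.28, -0.07, -0.38 and 0.03 for the same genes. The median over the 10 genes was 0.39 in Mutant097 and 0.06 in Mutant113. These values and the test below use each gene's probe of highest mean. In Mutant097 and Mutant113, second probes gave 0.57 and -0.14 for Dsp and 0.95 and -0.11 for Dsg3. For Dsg2 they gave 0.47 and -0.51, and for Dsc3 0.13 and -0.02. The test of the difference between the numbers called 0 of 10 genes and 0.00% of all probes, and its smallest adjusted p among the 10 genes was 0.561, for Dsc2 (-2.04, SE 0.89).

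Other parts of the desmosome and its envelope anchors were measured by 8 further genes, of which 0 were called in any of the 3 comparisons. The median difference was 0.20 in mutant normal skin and 0.37 in hair loss skin, each against wild type. Pkp2, the plakophilin best known from heart muscle, was -1.19 and -0.45 in the wild type. It was -0.08 to 0.43 in mutant normal skin, and 0.27 and 0.30 in hair loss skin, so all 6 mutant samples lay above both wild type samples. Taken singly, mutant normal skin lay wholly above the wild type for 13.6% of all probes, and hair loss skin for 24.8%. The share for all 6 mutant samples together was not counted. The Pkp2 differences from the wild type were 1.06 (SE 0.25, limma adjusted p = 0.121) and 1.11 (SE 0.29, limma adjusted p = 0.0857).

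Evpl encodes envoplakin, which links desmosomes to the cornified envelope. It was 5.87 and 6.07 in the wild type, 6.54 to 6.79 in mutant normal skin, and 7.21 and 6.59 in hair loss skin, again without overlap between mutants and wild type. The differences were 0.70 (SE 0.21, limma adjusted p = 0.174) and 0.93 (SE 0.24, limma adjusted p = 0.0864). Taken by sample, hair loss skin differed from the wild type by 1.24 in Mutant097 (limma adjusted p = 0.0401) and 0.62 in Mutant113 (limma adjusted p = 0.223), with 1 hair loss array behind each. With normexp the hair loss difference was 1.08 (limma adjusted p = 0.0444).

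The remaining 6 lay closer to the wild type. Mutant normal skin differed from it by 0.27 for Perp, a tetraspan protein of desmosomes, by 0.22 for Cdsn, which encodes corneodesmosin, and by 0.19 for Ppl, which encodes periplakin. Pkp3 differed by 0.00, Dsg1b by 0.04 and Dsg1c by -0.05. In hair loss skin these 6 were 0.16 to 0.63 above the wild type, the highest being Cdsn. Dsg1a, Dsg1b and Dsg1c are close copies of each other, and how far their probes bind each other's transcripts is not given in the sources used here. Dsg1b and Dsg1c were higher in Mutant113 than in Mutant097 normal skin by 0.66 and 0.70, whereas Dsg1a differed by -0.02, so these probes did not move together.

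The mean level of hair shaft keratins separated the mutant samples from the wild type, but not hair loss skin from mutant normal skin. Of 12 such keratins tested, 9 were called higher in mutant normal skin and 10 in hair loss skin than in the wild type. Most were at background in the wild type and passed the filter through the mutants, so the size of their differences was not measured. Without wild type replicate 2, 0 probes of any kind were called in either comparison, without wild type replicate 1 there were 10 in each, and without hair loss replicate 1 there were 2 for hair loss. The mean level of the 12 was -3.26 and -4.04 in the wild type, where 3 of 12 were well above background. It was 2.37 and 2.45 in Mutant097 normal skin, 5.26 and 4.57 in Mutant113 normal skin, and 6.05 and 4.48 in hair loss skin of Mutant097 and Mutant113. Inner root sheath markers (7 of 8 called in both comparisons) had means of -0.88 and -2.19 in the wild type and 4.49 to 7.27 in the mutants.

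**Figure D3:**
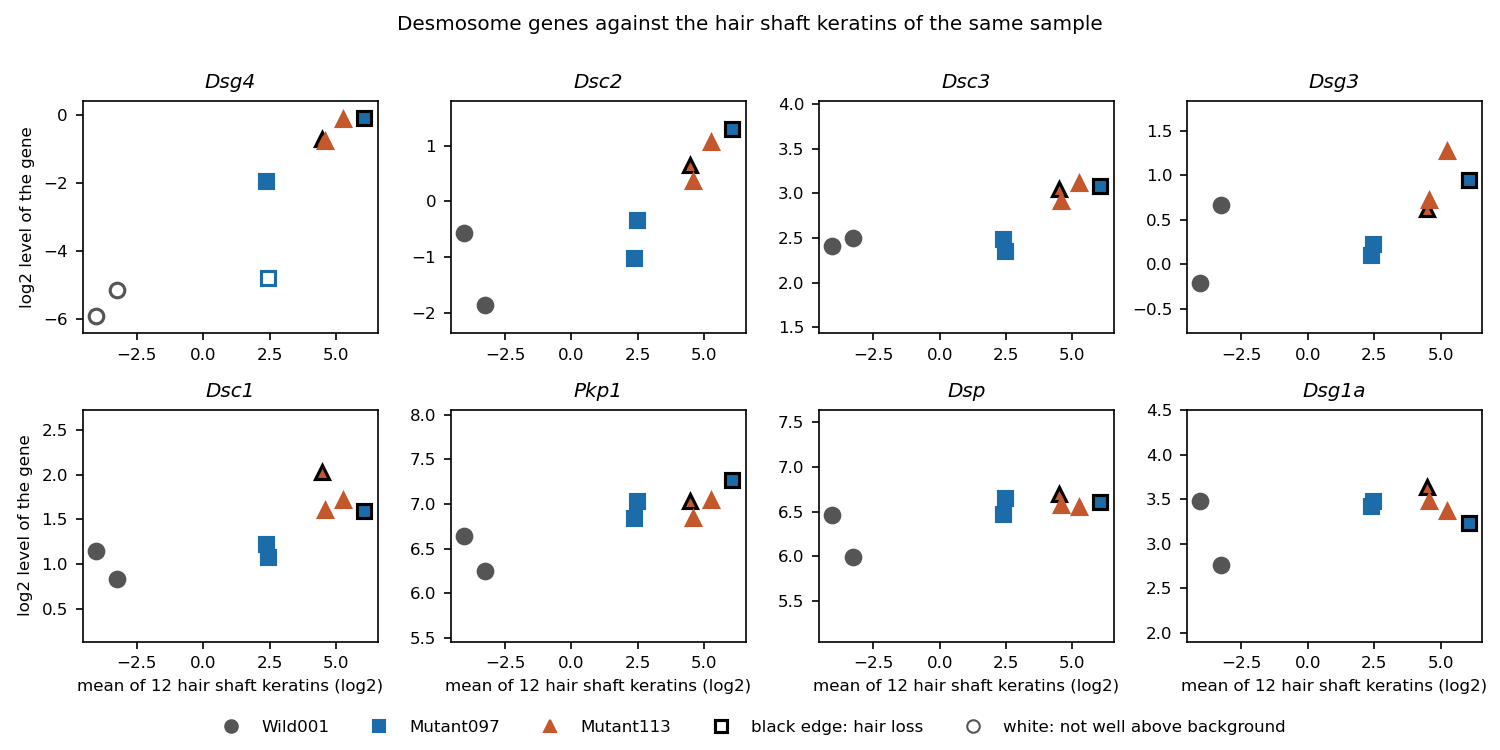
Log2 level of 8 desmosome genes (vertical) against the mean log2 level of 12 hair shaft keratins in the same sample (horizontal), 1 point per sample. Dsg4, Dsc1, Dsc2 and Dsc3 are highest in the 4 samples whose keratin mean is 4.48 or more, and Dsp and Dsg1a differ little among the 6 mutant samples.

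The 4 samples with the highest hair shaft means, both of hair loss and both of Mutant113 normal skin, were also the 4 highest for 4 of the 10 genes, Dsg4, Dsc1, Dsc2 and Dsc3. They were not for the other 6: for Dsg3 the wild type replicate 1, at 0.66, lay among them, and for Jup the Mutant097 hair loss sample, at -1.06, lay below both wild type samples. The pair of Mutant097 normal samples shows where Dsg4 and the keratins parted. Their hair shaft means were 2.37 and 2.45, but their Dsg4 levels were -1.94 and -4.78, and their inner root sheath means 5.82 and 4.49. The part of the follicle markers in the differences of the desmosome genes was not tested.

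Markers of the surface epidermis had closer means but did not move as one. The mean of 5 basal genes lay within 6.18 to 6.49 in all 8 samples. The mean of 5 suprabasal genes was 4.02 and 4.20 in the wild type, 4.04 to 4.33 in mutant normal skin, and 4.57 and 4.55 in hair loss skin. In hair loss skin against wild type the basal genes ran from -0.90 for Krt15 to 1.65 for Krt14, and the suprabasal genes from -0.41 for Krt2 to 1.51 for Ivl, with 0 of 5 called in each list. Means of fibroblast and muscle markers were lower in the mutants, in some samples barely so. The mean of 4 fibroblast genes was 8.60 and 8.14 in the wild type and 6.59 to 8.09 in the mutants. That of 6 skeletal muscle genes was 6.38 and 6.60 against 3.56 to 6.35. The mean of 4 adipocyte genes went the other way, at 3.066 and 3.045 against 3.115 to 3.944. No fibroblast or adipocyte gene was called against wild type, and no muscle gene in mutant normal skin. All 6 muscle genes were lower in hair loss skin than in the wild type (-3.07 to -1.48), and 2 of them, Myl1 and Mylpf, were called. Both calls were lost without wild type replicate 2 and without hair loss replicate 1, where no probe was called lower. The part of these markers was not tested either.

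Other cell junctions were compared through gene lists. Of 9 adherens junction genes, 0 were called in mutant normal skin and 1 in hair loss skin against wild type, with medians of 0.41 and 0.62. That 1 was Nectin1, an adhesion receptor, at 1.40 (limma adjusted p = 0.0409). Its call was lost without hair loss replicate 1 (1.12, adjusted p = 0.178), without wild type replicate 1 (1.29, adjusted p = 0.195) or 2 (1.52, adjusted p = 0.072), and without mutant normal replicate 1, 2 or 4 (1.40, adjusted p = 0.0579, 0.0591 and 0.0679). The 8 tight junction genes had medians of 0.43 and 0.75 with 0 called. Hemidesmosome genes, which fasten basal cells to the basement membrane below, had medians of -0.07 and -0.34 over 9 genes, with 0 called. The lists were not tested against each other.

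A list of proteases linked to the cleavage of desmosomal proteins, not only in shedding corneocytes, and an inhibitor had medians of 0.33 and 0.62. Of its 8 genes, 7 were tested. Klk7, a kallikrein that digests corneodesmosin, rose in hair loss skin against wild type by 1.72 (limma adjusted p = 0.0382), and 0 were called in mutant normal skin. That call was lost without any 1 of 7 of the 8 arrays, the exception being mutant normal replicate 3, with values of 1.43 to 2.01 and adjusted p-values of 0.0528 to 0.181.

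Regulators of hair differentiation had the highest medians of these lists, 1.88 in mutant normal skin and 2.54 in hair loss skin over 6 genes. Hoxc13, a homeobox gene that drives hair keratin genes, rose by 2.98 in mutant normal skin (limma adjusted p = 0.0475) and 3.63 in hair loss skin (limma adjusted p = 0.031). Msx2, a homeobox gene of the hair matrix, rose by 3.34 in hair loss skin (limma adjusted p = 0.0401). The Hoxc13 call in mutant normal skin remained without mutant normal replicate 2 and was lost without any other single array (2.63 to 3.33, adjusted p = 0.0516 to 0.194). In hair loss skin the calls on both genes were lost without hair loss replicate 1, mutant normal replicate 4 or either wild type array (Hoxc13 3.05 to 3.98, Msx2 2.61 to 3.42). All of these calls on Nectin1, Klk7, Hoxc13 and Msx2 were also lost without a filter on dim probes and with 1 mean per title number and group. With the title number as a random block the calls on Nectin1 (adjusted p = 0.0514), Msx2 (0.0504) and, in mutant normal skin, Hoxc13 (0.0687) were lost, and with the slide row as a block those on Nectin1 (adjusted p = 0.0553), Klk7 (0.0616) and Msx2 (0.0897). The 6 regulators of epidermal differentiation had medians of 0.61 and 0.56, with 0 called.

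**Figure D4:**
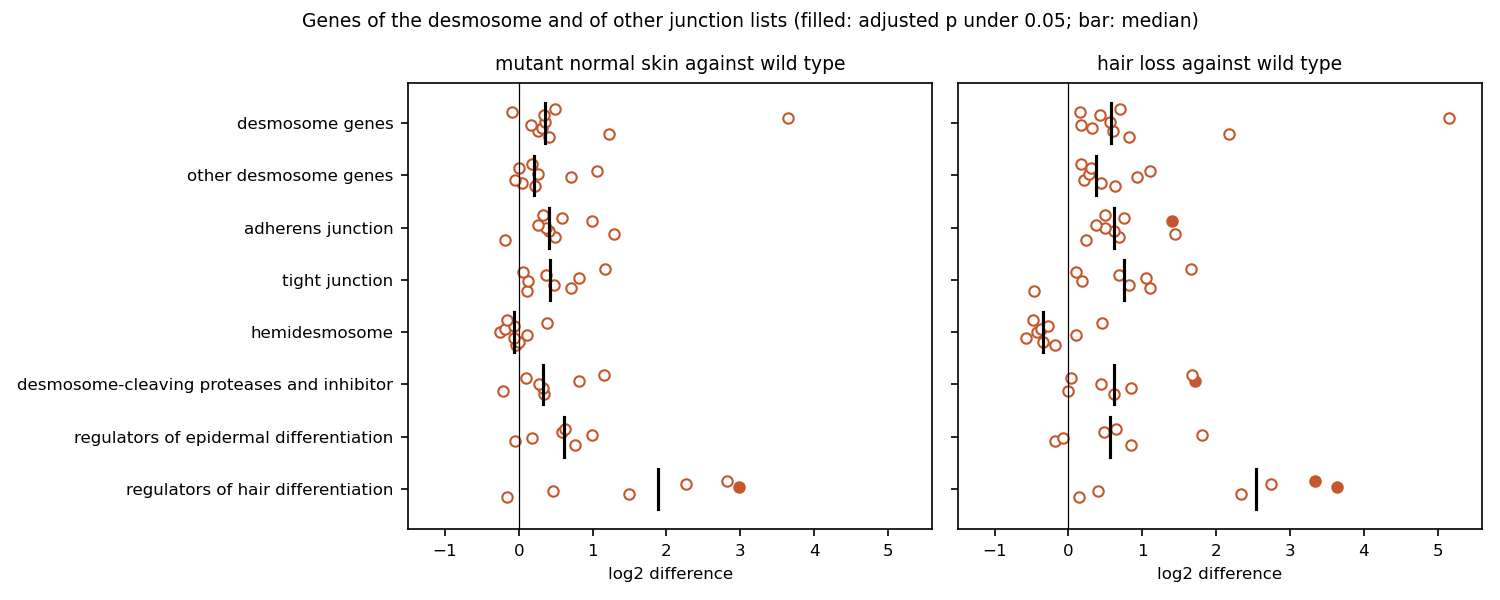
Log2 difference of each gene in the desmosome lists and in 6 further lists, for mutant normal skin (left) and hair loss skin (right) against wild type; each circle is a gene, filled where the adjusted p was under 0.05, and bars are medians. The hair regulators lie farthest to the right, with medians of 1.88 and 2.54, and Dsg4 is the single desmosome gene beyond 3.

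The genes most like Dsg4 over the 8 arrays were sought among 18355 probes well above background on at least 4 arrays. The 5 highest were S100a7a, a small calcium-binding protein of epidermis (Pearson r = 0.989), Lhfpl1 (r = 0.987), Sytl2, a Rab27 effector (r = 0.981), Pm20d1, an enzyme of N-acyl amino acids (r = 0.977), and Kalrn (r = 0.977). There were 53 probes with r above 0.95. These values describe 8 arrays that share title numbers and a low wild type group. S100a7a was -4.89 and -5.70 in the wild type and -5.33 in mutant normal replicate 2, none of them well above background, against -2.35 to -0.47 in the other 5 samples. Lhfpl1 and Kalrn were not well above background in those same samples, as Dsg4 was not, and Pm20d1 in neither wild type sample. For these genes r rests in part on signals at background, which have no order among themselves. Sytl2, well above background in all 8, was -1.91 in both wild type samples, -1.44 in mutant normal replicate 2 and -0.35 to 0.43 elsewhere. These genes were picked for this likeness, so their shared pattern is a description.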

How the data were processed

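Intensities were read from 8 single-colour arrays (1 slide, 1 scan). Per the file headers and the submitters' processing notes, the authors used Agilent Feature Extraction 11.5.1.1, which gives a processed intensity per spot corrected for background. The deposited matrix holds log2 values that equal the scaled log2 signal up to a constant per array (-0.0027 to 0.0014). Control spots and 118 to 210 spots per array marked as outliers were left out, and spots of a probe averaged. The log2 intensity minus the array's 75th percentile was used. Probes well above background on at least 2 of 8 arrays were tested (30417) with limma 3.58.1 in R 4.3.3, in 1 model of 3 groups with 5 residual degrees of freedom and 2.71 from the prior. All p-values are two-sided, with Benjamini-Hochberg adjustment, called under 0.05. A second model of all 8 arrays had each combination of group and title number as a level. Its comparisons for a single number are called that number alone.

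Genes were named by RefSeq accession through a table on GRCm38.p6. The array design uses mm9, so no positions are given. A gene was represented by its probe with the highest mean. The 10 genes and all lists were chosen with earlier results of these data known. Named were the 10 genes, 8 further desmosome genes, at most 3 called genes of each other list in mutant normal skin, and the 5 genes most like Dsg4; Nectin1, Klk7, Msx2, Myl1, Mylpf, Krt14, Krt15, Krt2 and Ivl were added after their values were seen. Alternatives were the matrix, normexp (offset 50, on the median signal, since the files used here hold no mean signal), quantile and median scaling, other filters, the slide row or title number as a block, 1 mean per number, each number alone, the mean of a gene's probes and leaving out each array. The number of arrays limits the precision.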

Additional observations from a re-analysis of the deposited data

How the results depend on the processing

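Of 10 desmosome genes, the number called against wild type was 0 except in these cases. With the slide row as a block it was 1 for mutant normal skin (Dsg4) and 3 for hair loss (Dsg4, Dsc2 and Dsc3). When single arrays were left out it ranged from 0 to 1 in both, the 1 being Dsg4 without mutant normal replicate 2. That was the only mutant array with Dsg4 at background, and in the wild type Dsg4 was at background throughout. With the title number as a random block (correlation 0.073) it was 0. Probes called were fewer without a filter (128 for mutant normal skin and 183 for hair loss, with more probes tested) and for mutant normal skin over probes well above background on all 8 arrays (64). With 1 mean per title number and group, 0 were called in both. With the slide row as a block, 856 and 1332 were called. The counts for a title number alone, given next, are comparisons within the second model of all 8 arrays, with 3 residual degrees of freedom. Those for hair loss skin rest on 1 hair loss array per number. The spread of that array cannot be estimated and is assumed to be like that of the other samples. A larger count there is therefore no stronger evidence. With Mutant113 alone 991 were called in normal skin, and with Mutant097 alone 1835 in hair loss skin. Hair loss against mutant normal skin gave 191 in Mutant097 alone and 1 in Mutant113 alone. Leaving out single arrays gave 0 to 191 calls for mutant normal skin, 0 to 708 for hair loss, and 0 to 11 between them. The lowest counts against wild type were without wild type replicate 1 (10 in both), without wild type replicate 2 (0 in both) and, for hair loss, without hair loss replicate 1 (2). The causes were not tested.

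Direction changed only in log2 differences that were not called. For mutant normal skin against wild type, normexp gave -0.028 for Dsg2, quantile scaling -0.049 for Pkp3, and the mean of both probes -0.046 for Dsc3. The slide row as a block, which here equals Mutant113 alone, gave 0.22 for Jup and 0.30 for Dsg1c. Mutant097 alone gave -0.057 for Dsg3, -0.035 for Dsc3, -0.29 for Dsg1b and -0.084 for Pkp3. For hair loss against wild type, normexp gave -0.061 for Dsg2 and Mutant097 alone -0.19 for Jup. For hair loss against mutant normal skin, Dsg1a was 0.001 in the submitters' matrix, 0.03 with normexp, 0.009 with median scaling and 0.21 in Mutant113 alone. Dsg2 was -0.033 with normexp, -0.003 with quantile scaling, -0.008 as the mean of both probes and -0.088 in Mutant113 alone, which also gave -0.38 for Dsg3, -0.28 for Dsg4 and -0.068 for Dsc2. Leaving out single arrays gave, for mutant normal skin against wild type, -0.038 to 0.67 for Dsg1a, -0.077 to 0.80 for Dsg3, -0.25 to 0.073 for Jup, -0.10 to 0.16 for Dsg1b, -0.18 to 0.13 for Dsg1c, -0.051 to 0.052 for Pkp3 and -0.066 to 0.44 for Ppl. For hair loss against wild type it gave -0.039 to 0.67 for Dsg1a and -0.19 to 0.50 for Jup. Between hair loss and mutant normal skin it gave -0.20 to 0.20 for Dsg1a, -0.074 to 0.054 for Dsg2 and -0.10 to 0.59 for Jup. With the title number as a fixed block, which is possible only between hair loss and mutant normal skin, 0 probes were called. Signal over background limits Dsg4 alone among the 10 genes.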

Other observations

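Marker genes of dividing and of pigment cells ordered the mutant samples differently from Dsg4. The mean of 4 proliferation genes was highest in a Mutant097 normal sample, replicate 1 (1.93), where Dsg4 was -1.94, and was 0.11 and 0.61 in Mutant113 normal skin, where Dsg4 was -0.75 and -0.11. That mean was 1.45 and 0.97 in hair loss skin of Mutant097 and Mutant113, and -1.40 and -0.53 in the wild type. Against wild type 0 of the 4 genes were called. All 4 had an unadjusted p under 0.05 in mutant normal skin and in hair loss skin, beside 17.2% and 24.8% of all probes. The mean of 5 melanocyte genes was 2.92 and 1.097 in Mutant097 normal skin and 1.73 and 0.54 in Mutant113 normal skin. In hair loss skin of Mutant097 and Mutant113 it was 2.76 and 1.74, and in the wild type 0.50 and -0.45, also with 0 called. Within normal skin of each mutant number, both means were lower in the A sample than in the B sample, as Dsg4 was. Companion layer and outer root sheath markers were 5.16 and 4.58 in hair loss skin, 2.83 to 4.90 in mutant normal skin, and 1.51 and 2.32 in the wild type, and 1 of 4, Krt75, was called against wild type in both. Samples with the letter A lay below those with B of the same number for Dsg4 (A minus B -2.84, -0.64 and -0.76 in Mutant097, Mutant113 and Wild001, of which only the Mutant113 pair was well above background throughout) and for Dsc3 (A minus B -0.12, -0.20 and -0.09). The other 8 genes had both signs over the 3 pairs or A above B. A below B was not particular to these genes. The means of inner root sheath markers, regulators of hair differentiation and melanocyte genes were also lower in A in all 3 pairs. No test was made.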
